A study of Homo sapiens with 6 samples.

Results

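The transcripts of 9 regulators of the placodes and the neural border were followed in human induced pluripotent stem cells (hiPSCs): SIX4, EYA1, EYA2, EYA4, DLX3, DLX5, DLX6, TFAP2A and TFAP2B. They were chosen by symbol from the families of SIX4, EYA1, DLX3 and TFAP2A, and make up 9 of the 19977 genes counted in each library. All 9 had enough counts to be tested. The cells were NCRM-1, a wild type human iPSC line, seeded as single cells into vertical wheel bioreactors and grown as suspended aggregates for 4 days. The treated cells (PEG and HS, n = 3) received E8, a defined medium for pluripotent cells, with 10 mg/ml of the polymer polyethylene glycol and 0.1 µg/ml of heparin sodium salt. The control cells (E8 control, n = 3) received E8 without additives, and 50% of the medium was exchanged during the culture of both. The protocol text of the labels describes the additives for all 6 libraries, so the treatment named for each library was followed. The labels speak of the control and the treated bioreactor in the singular, so the effect of the vessel cannot be told apart from that of the medium, and the spread between replicates may be that of samples from a shared vessel. All libraries came from the same line.

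The neural plate border is the strip of embryonic ectoderm between the future nervous system and the future skin, and it gives rise to the neural crest and to the cranial placodes, the thickenings that form lens, nose, inner ear and sensory ganglia. Intermediate BMP activity, together with Wnt and FGF signals, is known to induce this territory. TFAP2A and the DLX homeobox genes are among its early markers, and proteins of the SIX4 and EYA families act together as a DNA-binding factor and its coactivator in the preplacodal region. Most of these genes are silent or low in undifferentiated pluripotent cells, although some family members are expressed widely.

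Counts on genes ranged from 26991279 to 36185138 per library, and the ranges of the media overlapped. Levels are given as CPM, the usual abbreviation for counts scaled to the same library size, here with the TMM factors of edgeR, and media were compared with the quasi-likelihood test of edgeR. Adjusted p denotes the Benjamini-Hochberg value over the 16505 genes tested, a gene was called at an adjusted p under 0.05, and a negative log2 fold change is a lower level in PEG and HS. Replicates differed by more than sampling noise, with a chi-square per degree of freedom of 2.61 to 3.6, so no library appeared to be deposited more than 1 time. This does not show that the libraries came from separate cultures, and p-values measure only the spread between them. The pluripotent identity of the cells was visible in their transcripts. All 8 genes of a pluripotent stem cell list, among them POU5F1, NANOG and DNMT3B, exceeded 1 CPM in both media. The summed level of that list was 8028 to 8283 CPM in PEG and HS and 8554 to 8710 CPM in E8 control.

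With PEG and HS, TFAP2A and DLX5 were lower and SIX4 was slightly higher. TFAP2A was at 6.00 ± 0.230 CPM (SD, n = 3) without the additives and at 0.604 ± 0.270 CPM with them, and DLX5 dropped from a low level to almost no counts. SIX4, the most abundant of the 9, rose 1.18-fold. The remaining 6, EYA1, EYA2, EYA4, DLX3, DLX6 and TFAP2B, all had negative estimates and did not pass the test. Of all genes tested, 25.3% were called, 12.2% higher and 13.1% lower, so that 3 calls among 9 genes (33.3%) lie close to the background. Libraries were separate by medium for 7 of the 9 genes, 6 lower and 1 higher in PEG and HS. Of all genes tested, 39.3% showed no overlap, 19.8% lower and 19.5% higher. The median log2 fold change of the 9 was -0.79, the value of TFAP2B, which was not called, beside 0.003 for all genes tested. The 9 genes were chosen with earlier results of these data known, so these contrasts with all genes are descriptions only.

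**Figure D1:**
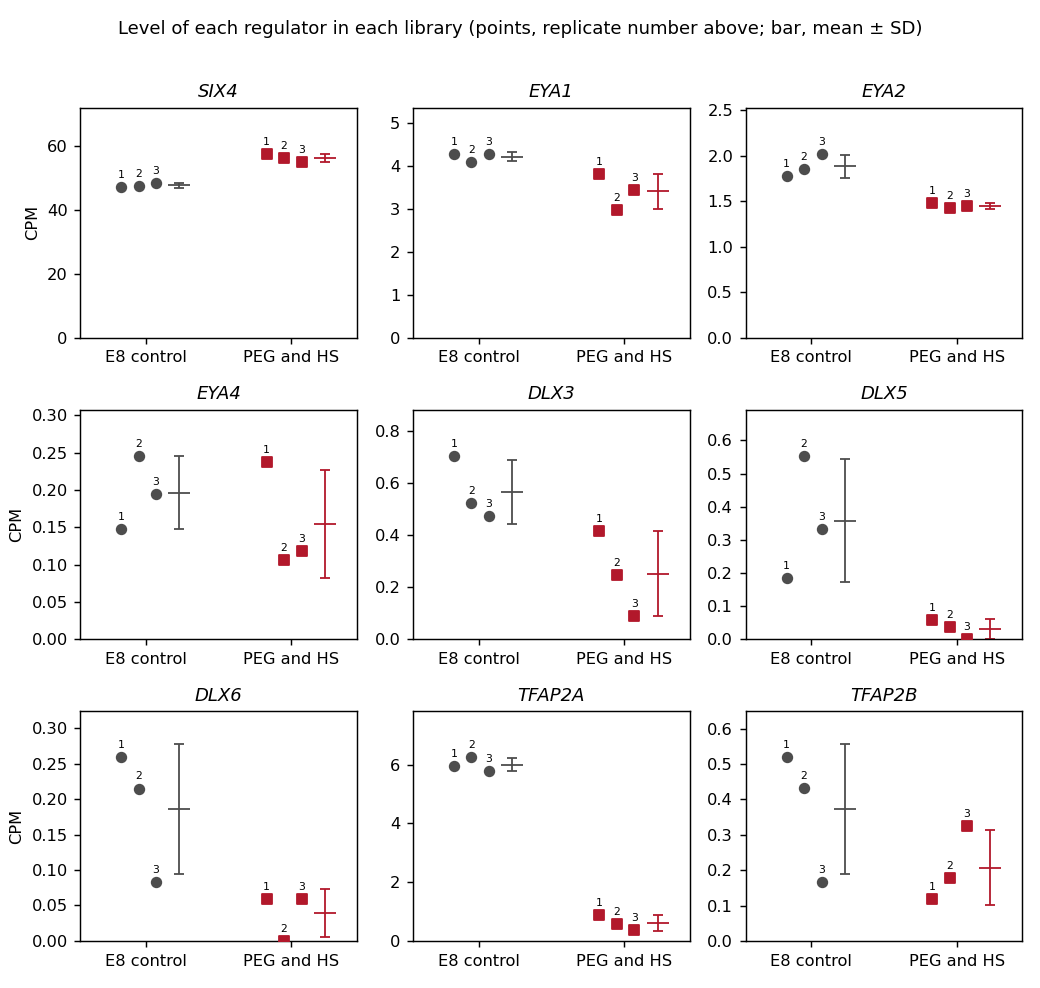
Level of each of the 9 regulators in CPM (vertical axes from 0, each with its own scale) in the 3 E8 control libraries (grey circles) and the 3 PEG and HS libraries (red squares), with the replicate number above each point and the mean ± SD beside the points. TFAP2A lies between 5.79 and 6.25 CPM in E8 control and between 0.355 and 0.890 CPM in PEG and HS, while SIX4 is the only gene whose PEG and HS points all lie above the E8 control points.

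TFAP2A (ENSG00000137203, chromosome 6, 10393186 to 10419659 of GRCh38, minus strand) encodes AP-2 alpha, a transcription factor required for neural crest and craniofacial development. Its counts were 161, 203 and 209 in E8 control libraries 1 to 3 and 30, 16 and 12 in PEG and HS libraries 1 to 3. Each E8 control library thus held several times the counts of any PEG and HS library, and the groups were far apart. The log2 fold change was -3.30 (SE 0.20, 95% interval -3.74 to -2.86, adjusted p = 9.84e-09 from the quasi-likelihood test of edgeR). On the linear scale this is 9.86-fold lower in PEG and HS, with an interval of 7.29 to 13.4. A decrease of at least 2-fold together with an adjusted p under 0.05 was seen in 1.78% of all genes tested. The PEG and HS libraries ran from 0.355 to 0.890 CPM and the E8 control libraries from 5.79 to 6.25 CPM. Relative to the mean, the PEG and HS libraries were spread far more widely, with an SD of 0.270 on 0.604 CPM. In E8 control the SD was 0.230 on 6.00 CPM. The merged exons of the gene span 8220 bases over 19 annotated transcripts with more than 1 start, which counts per gene cannot separate. The antisense genes TFAP2A-AS1 and TFAP2A-AS2 overlap 438 and 941 of these bases. As the use of strand in the counting is not given in the sources used here, reads of these genes and of TFAP2A cannot be told apart in the overlaps. Of the 31-base words in its transcripts, 15.1% also occur in transcripts of other genes, on either strand.

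TFAP2A and SIX4, the called genes that fell and rose with the most counts, are shown with the 250 bases before their outermost RefSeq start (GRCh38.p14, 5′ to 3′ on the gene's strand). Both lie outside the annotated transcripts of their genes, at chr6:10419660-10419909 and chr14:60724352-60724601, both on the minus strand. Capitals mark the only matches to the 5 motifs searched, a TATA box in TFAP2A that begins 30 bases before the start and a CCAAT box in SIX4 that begins 39 bases before it.
TFAP2A: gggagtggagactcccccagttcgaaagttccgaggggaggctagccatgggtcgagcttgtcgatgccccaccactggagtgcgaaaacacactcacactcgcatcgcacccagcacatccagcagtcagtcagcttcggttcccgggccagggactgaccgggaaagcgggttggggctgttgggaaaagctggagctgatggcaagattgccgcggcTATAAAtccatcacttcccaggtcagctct
SIX4: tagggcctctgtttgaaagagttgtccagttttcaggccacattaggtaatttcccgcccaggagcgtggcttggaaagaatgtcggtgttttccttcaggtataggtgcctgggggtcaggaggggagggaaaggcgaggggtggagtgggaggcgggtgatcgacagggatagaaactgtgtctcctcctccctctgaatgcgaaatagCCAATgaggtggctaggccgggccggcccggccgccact

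The motifs were GCCNNNGGC (bound by TFAP2 proteins), TAATTA (homeodomain proteins such as DLX), GGCGCC (a GC-rich SMAD element), TATAAA (the core promoter element called TATA box) and CCAAT, searched on both strands. GCCNNNGGC and GGCGCC can overlap. Of 35116 RefSeq promoters, windows of this length held them in 19.8%, 4.35%, 16.4%, 10.7% and 32% respectively. Promoter entries were matched for 5 of the 9 genes, in 6 windows. EYA4 held 3 matches to GCCNNNGGC, and DLX6 held 2 to GCCNNNGGC, 2 to GGCGCC and 2 to CCAAT. TFAP2B held a TATAAA match and a CCAAT, and the inner start of TFAP2A none. The GC content of the 6 windows ran from 40.8% for TFAP2B to 75.2% for EYA4. A match describes letters in a window only.

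TFAP2B (ENSG00000008196, chromosome 6, 50818723 to 50847619, plus strand) encodes AP-2 beta, a close relative expressed in neural crest. It had 14, 14 and 6 counts in E8 control libraries 1 to 3 and 4, 5 and 11 in PEG and HS libraries 1 to 3. E8 control replicate 3 lay below PEG and HS replicates 2 and 3 in CPM, so the media overlapped. The log2 fold change was -0.79 with a 95% interval of -1.94 to 0.36 (adjusted p = 0.322, edgeR quasi-likelihood test), so a decrease of the size seen in TFAP2A lies outside the interval, while a moderate decrease and a slight increase lie inside it.

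The most abundant TFAP2 transcript in both media was TFAP2C, whose product AP-2 gamma is expressed in pluripotent cells and germ cell precursors. TFAP2C fell from 18.3 ± 0.420 to 11.3 ± 0.591 CPM (SD, n = 3, log2 fold change -0.70 with SE 0.062, adjusted p = 6.47e-07, edgeR quasi-likelihood test), without overlap. Per kilobase of merged exon, TFAP2A made up 10.56%, 10.55% and 10.15% of the summed CPM of the 5 TFAP2 genes in E8 control libraries 1 to 3. In PEG and HS libraries 1 to 3 its share was 2.81%, 1.79% and 1.025%, so that the groups did not overlap. TFAP2C held 87.2% ± 0.534 in E8 control and 94.9% ± 0.202 in PEG and HS. The summed level of the family per kilobase was 7.01 ± 0.176 CPM in E8 control and 3.97 ± 0.207 CPM with PEG and HS. TFAP2E had 10 to 18 counts per library and an estimate of -0.20 (adjusted p = 0.748), and TFAP2D, the neighbour of TFAP2B at 45.7 kb, had no count in any library.

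The DLX genes encode homeodomain proteins that pattern the border ectoderm, the branchial arches and the skeleton. DLX5 (ENSG00000105880, chromosome 7, 97020396 to 97024950, minus strand) had 5, 18 and 12 counts in E8 control libraries 1 to 3 and 2, 1 and 0 in PEG and HS libraries 1 to 3. Every E8 control library was above every PEG and HS library, although the E8 control values themselves ranged from 0.185 to 0.554 CPM. The log2 fold change was -3.38 (SE 0.76, 95% interval -5.01 to -1.75, adjusted p = 0.00412, edgeR quasi-likelihood test). With only 3 counts in PEG and HS against 35 in E8 control, the ratio of the summed levels was 11.7-fold lower in PEG and HS, with an exact 95% counting interval of 3.69 to 59.5 that covers counting error only. Leaving out each library in turn gave DLX5 estimates from -4.19, without PEG and HS replicate 1, to -2.81, without PEG and HS replicate 3, with adjusted p from 0.00349 to 0.0261. DLX5 was not called in a test against 1.5-fold (adjusted p = 0.0521), and filters that ask for more counts did not test it.

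DLX6 (ENSG00000006377, chromosome 7, 97005553 to 97011040, plus strand) lies 9.4 kb from DLX5 and forms a gene pair with it. Its counts were 7, 7 and 3 in E8 control libraries 1 to 3 and 2, 0 and 2 in PEG and HS libraries 1 to 3. The groups did not overlap, but E8 control replicate 3, at 0.0831 CPM, was near the highest PEG and HS library, at 0.0593 CPM. Its log2 fold change of -2.02 (95% interval -3.77 to -0.27) did not pass the adjustment (unadjusted p = 0.0266, adjusted p = 0.0872, edgeR quasi-likelihood test). The ratio of summed counts, 4 against 17, was 4.26-fold lower in PEG and HS (exact counting interval 1.39 to 17.4). The antisense gene DLX6-AS1 covers 759 bases of the DLX6 exons, so the same limit on strand holds here.

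DLX3 (ENSG00000064195, chromosome 17, 49990005 to 49995224, minus strand), a regulator of placode and epidermal cells, had 19, 17 and 17 counts in E8 control libraries 1 to 3 and 14, 7 and 3 in PEG and HS libraries 1 to 3. All PEG and HS libraries lay lower, and the nearest was replicate 1 at 0.415 CPM against 0.471 CPM in E8 control replicate 3. Its log2 fold change was -1.15 (SE 0.47, 95% interval -2.16 to -0.14) with an adjusted p = 0.0925 from the quasi-likelihood test of edgeR. Without PEG and HS replicate 1 the DLX3 estimate was -1.76 and was called (adjusted p = 0.0378), but without PEG and HS replicate 3 it was -0.731 (adjusted p = 0.271), and leaving out any of the other 4 libraries gave no call. DLX4, 15.0 kb from DLX3, was called lower (0.367 ± 0.0618 against 0.729 ± 0.0670 CPM, SD, n = 3, log2 fold change -0.99, adjusted p = 0.0385). That call was lost when any of the 6 libraries was left out, with an adjusted p of 0.0566 to 0.128. DLX1 and DLX2, which form the pair on chromosome 2, had at most 3 and 5 counts in any library and were not called.

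SIX4 (ENSG00000100625, chromosome 14, 60709539 to 60724351, minus strand) encodes a homeodomain factor that binds DNA together with EYA coactivators. Its counts were 1276, 1540 and 1748 in E8 control libraries 1 to 3 and 1943, 1591 and 1864 in PEG and HS libraries 1 to 3. Scaled to depth, E8 control lay between 47.3 and 48.4 CPM and PEG and HS between 55.1 and 57.6 CPM, with no overlap and little spread in either medium. The estimated log2 fold change was 0.24 (SE 0.036, 95% interval 0.16 to 0.32, adjusted p = 1.57e-04, edgeR quasi-likelihood test). The increase was smaller than 1.5-fold, and it was not called when tested against that size.

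SIX4 lies 196.7 kb from SIX6 on chromosome 14. SIX6, a regulator of the optic and hypothalamic field, rose from 7.55 ± 0.136 to 13.6 ± 0.771 CPM (log2 fold change 0.85 with SE 0.071, adjusted p = 3.45e-07). SIX3, a forebrain and eye field gene on chromosome 2, went the other way, from 9.44 ± 0.329 to 3.72 ± 0.212 CPM (log2 fold change -1.35 with SE 0.088, adjusted p = 1.91e-08). Its neighbour SIX2, at 59.1 kb, was called lower at an adjusted p = 0.0469, which was 0.126 with DESeq2 and 0.0791 to 0.131 with 5 of the 6 libraries left out in turn.

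Per kilobase, the 5 genes SIX2 to SIX6 had summed levels that differed by less than the replicate spread, 27.80 ± 0.909 CPM without and 27.85 ± 0.336 CPM with the additives, while their shares differed. SIX4 held 25.4% ± 1.11 of the sum in E8 control and 29.9% ± 1.01 in PEG and HS, SIX6 went from 10.5% ± 0.155 to 18.8% ± 0.848, and SIX3 went from 12.5% ± 0.681 to 4.92% ± 0.255 (SD, n = 3). SIX5, the other abundant member, was at 50.6 ± 3.40 CPM in E8 control and 45.9 ± 0.753 CPM with PEG and HS, with a small decrease (log2 fold change -0.14, adjusted p = 0.0397) that was not called with DESeq2, with library size alone or without 5 of the 6 libraries in turn. SIX5 shares 56.5% of its 31-base words with other genes, so its counts are uncertain.

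**Figure D2:**
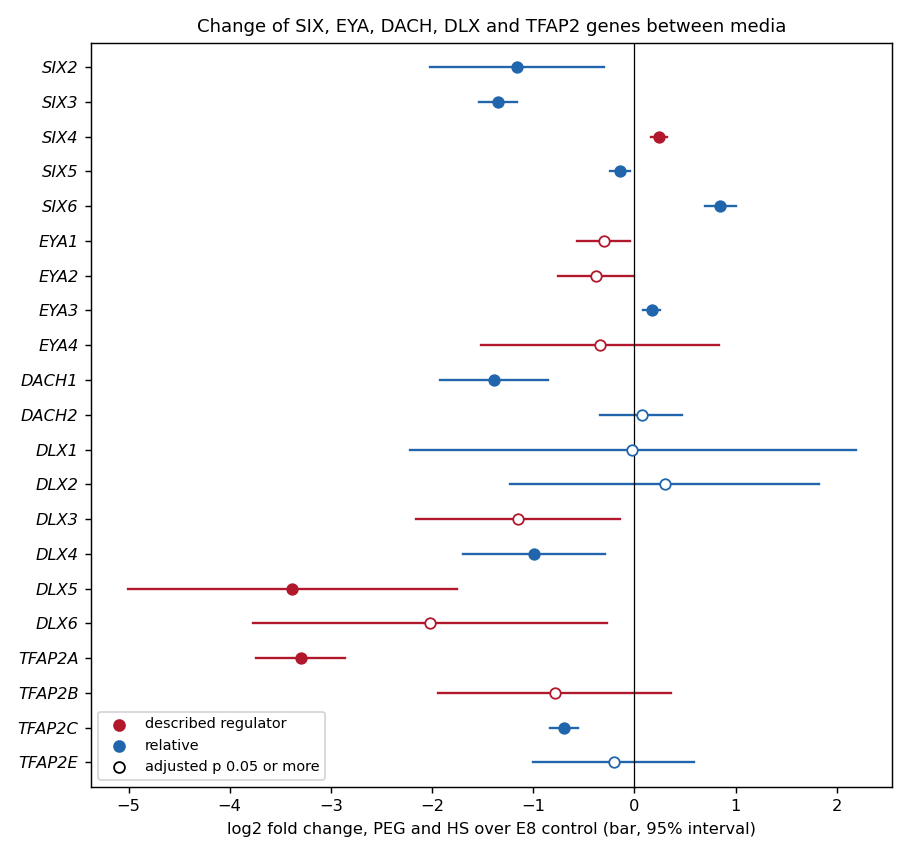
Fitted log2 fold change of PEG and HS over E8 control (horizontal axis) for the 9 regulators (red) and 12 tested relatives (blue), with bars for the 95% interval from edgeR and filled points for an adjusted p under 0.05. TFAP2A has a narrow interval far below 0, DLX5 and DLX6 have wide intervals below 0, and SIX4 and SIX6 lie above 0 while SIX3 lies below.

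EYA proteins are transcriptional coactivators with a phosphatase domain that bind SIX4 and its relatives. EYA1 (ENSG00000104313, chromosome 8, 71197433 to 71592025, minus strand), which is mutated in branchio-oto-renal syndrome, had 115, 133 and 154 counts in E8 control libraries 1 to 3 and 128, 84 and 116 in PEG and HS libraries 1 to 3. After scaling, E8 control lay between 4.09 and 4.27 CPM and PEG and HS between 2.97 and 3.80 CPM, so that the groups were separate by a small margin. The estimated log2 fold change of -0.30 (SE 0.12, 95% interval -0.57 to -0.04) gave an unadjusted p = 0.0276 and an adjusted p = 0.0895 in the quasi-likelihood test of edgeR. Decreases larger than 1.48-fold lie outside this interval.

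EYA2 (ENSG00000064655, chromosome 20, 46894624 to 47188844, plus strand) showed the same pattern at a lower level. Its counts were 48, 60 and 73 in E8 control libraries 1 to 3 and 50, 40 and 49 in PEG and HS libraries 1 to 3. The PEG and HS libraries lay close together, from 1.42 to 1.48 CPM, below the lowest E8 control library at 1.78 CPM. The estimated log2 fold change was -0.38 (SE 0.18, 95% interval -0.76 to 0.00, adjusted p = 0.141, edgeR quasi-likelihood test). EYA4 (ENSG00000112319, chromosome 6, 133240514 to 133532128, plus strand), a gene linked to hearing, had 4, 8 and 7 counts in E8 control libraries 1 to 3 and 8, 3 and 4 in PEG and HS libraries 1 to 3. The media overlapped, and with 34 counts in all the 95% interval of the log2 fold change ran from -1.52 to 0.84 (adjusted p = 0.712). A 2-fold decrease lies inside this interval.

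The EYA family was dominated by EYA3, a member found in many cell types. EYA3 rose from 47.6 ± 0.961 to 53.4 ± 1.82 CPM (SD, n = 3, log2 fold change 0.17 with SE 0.039, adjusted p = 0.00533, edgeR quasi-likelihood test). Per kilobase it held 88.3% ± 0.205 of the family in E8 control and 91.5% ± 0.663 in PEG and HS. EYA1 held 5.38% ± 0.147 in E8 control and 4.01% ± 0.487 in PEG and HS, and EYA2 held 6.20% ± 0.273 and 4.41% ± 0.161. DACH proteins complete the network of SIX4 and EYA proteins. DACH1 fell from 2.49 ± 0.626 to 0.933 ± 0.275 CPM (log2 fold change -1.39 with SE 0.25, adjusted p = 7.72e-04), and DACH2 was at 1.51 ± 0.0894 CPM without and 1.58 ± 0.146 CPM with the additives, with overlap (adjusted p = 0.844). Over the 13 relatives of the 9 genes that were examined, 12 were tested, with 2 called higher, 6 lower and 4 not called. Their median log2 fold change was -0.17, and 66.7% of those tested were called, beside 25.3% of all genes tested. With DESeq2, and without any library except E8 control replicate 3, the calls among them numbered 5 in place of 8, with 3 lower.

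**Figure D3:**
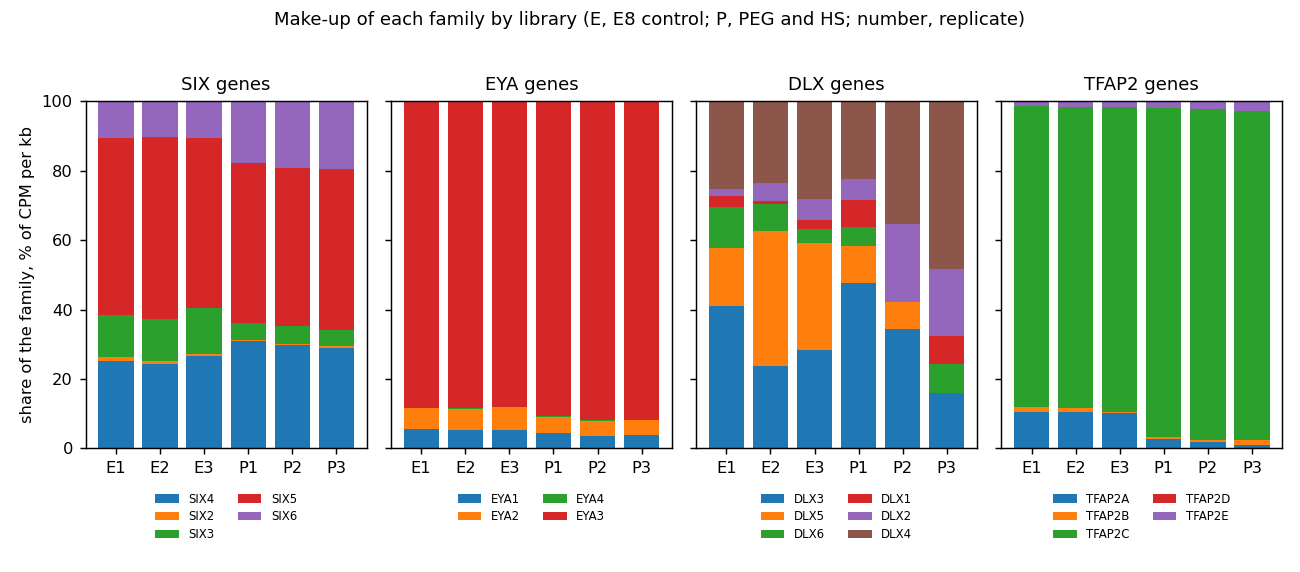
Share of each gene in the summed CPM per kilobase of merged exon of the family genes shown (vertical axis, percent), for each E8 control library (E1 to E3) and each PEG and HS library (P1 to P3). TFAP2C and EYA3 fill most of their families in every library, the share of TFAP2A shrinks to between 1.025% and 2.81% in PEG and HS, and the DLX shares vary between replicates and rest on few counts.

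When levels were ranked per kilobase of merged exon, SIX4 stood first in both media, at 7.05 ± 0.0934 CPM per kilobase in E8 control and 8.32 ± 0.188 in PEG and HS. In E8 control it was followed by TFAP2A (0.730 ± 0.0280), EYA2 (0.521 ± 0.0348) and EYA1 (0.451 ± 0.0106), which were separate from each other in every library. DLX3 (0.209 ± 0.0451) and DLX5 (0.205 ± 0.106) came next and overlapped, as did TFAP2B (0.0605 ± 0.0298) and DLX6 (0.0540 ± 0.0266), with EYA4 lowest (0.0134 ± 0.00334). In PEG and HS, EYA2 (0.400 ± 0.00928) and EYA1 (0.365 ± 0.0442) followed SIX4 and overlapped, and TFAP2A (0.0734 ± 0.0328) took the fifth place. All neighbours from DLX3 downwards overlapped there. By CPM, 4 of the 9 genes reached 1 CPM in E8 control (SIX4, TFAP2A, EYA1 and EYA2) and 3 in PEG and HS, where TFAP2A dropped below it. The order of EYA1 and EYA2 was reversed by CPM, at 4.21 against 1.88 CPM in E8 control and 3.40 against 1.45 CPM in PEG and HS. Their merged exons span 9322 and 3618 bases, which need not be the lengths expressed. Within PEG and HS, replicate 1 was the highest library for 8 of the 9 genes, all except TFAP2B. Some of these margins were very small, such as 0.0593 against 0.0591 CPM for DLX6 and 2 against 1 counts for DLX5. The same share was not counted over all genes. In E8 control each replicate was highest for 3 genes.

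Other regulators of the border, the placodes and the adjoining tissues were described by lists, each by its counts and its median. Of all genes tested, 25.3% were called, 12.2% higher and 13.1% lower. The share called in these lists ran from 20% for mesoderm to 80% for BMP ligands and response genes, and was 33.3% for surface ectoderm. No list was tested as a set. Of the 15 neural border and neural crest genes, all were tested, with 4 called higher, 4 lower and 7 not called (median log2 fold change -0.32). ZIC1, which marks the border and dorsal neural tissue, fell from 7.30 ± 0.453 to 3.94 ± 0.340 CPM (SD, n = 3, log2 fold change -0.90, adjusted p = 8.02e-06, edgeR quasi-likelihood test). GBX2, a gene of the posterior border, rose from 9.58 ± 0.446 to 17.3 ± 1.01 CPM (log2 fold change 0.85, adjusted p = 2.01e-07). SOX10, a neural crest gene, was called lower (2.56 ± 0.335 against 3.54 ± 0.268 CPM, adjusted p = 0.0223), but not with DESeq2 (adjusted p = 0.0651) or without 4 of the 6 libraries in turn. The called border genes did not share a direction. FOXD3 went up from 41.6 ± 0.943 to 51.9 ± 1.91 CPM (log2 fold change 0.32, adjusted p = 2.85e-05, edgeR quasi-likelihood test). SOX8 and ETS1 were called higher too, at log2 fold changes of 0.32 and 0.16. MSX2 and PRDM1, both under 1 CPM, were called lower, at -1.22 and -1.47. PAX7 had an estimate of 0.03, and its libraries overlapped. With the additives this list summed to 167.8 to 173.3 CPM, above the 150.5 to 157.2 CPM of the control libraries. Most of that sum was FOXD3 and ETS1 (55.3 ± 2.30 against 49.6 ± 2.02 CPM), so it does not describe the other genes of the list. MSX1, PAX3, SNAI2 and TWIST1 stayed under 1 CPM on average in both media and were not called.

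Of the 12 placode genes 9 were tested, with 0 called higher, 4 lower and 5 not called (median -0.53). FOXI3, a forkhead factor of the preplacodal ectoderm, fell from 33.3 ± 2.10 CPM in E8 control to 11.5 ± 1.48 CPM with PEG and HS (log2 fold change -1.53 with SE 0.078, adjusted p = 1.04e-09, edgeR quasi-likelihood test). SOX3, a gene of neural and placodal progenitors, fell less (log2 fold change -0.39, adjusted p = 4.39e-04). NEUROG1 and POU4F1, the other genes called lower, had 49 and 155 counts in all. Without PEG and HS replicate 1 or 2 or E8 control replicate 1, POU4F1 was not called (adjusted p 0.0753 to 0.146, edgeR quasi-likelihood test). The summed level of the list was 23.3 to 26.7 CPM in PEG and HS and 48.4 to 53.3 CPM in E8 control. Most of that sum was FOXI3 and SOX3, whereas PAX2, PAX8 and PITX1 were under 1 CPM and FOXI1 had no count.

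Markers of other tissues that use the same regulators were counted in the same way. Among 12 surface ectoderm genes, 9 were tested, with 1 called higher and 2 lower (median 0.07). GRHL3 fell from 3.94 ± 0.201 to 1.22 ± 0.0589 CPM (log2 fold change -1.69, adjusted p = 6.12e-07, edgeR quasi-likelihood test) and GATA2 from 1.59 ± 0.283 to 0.674 ± 0.0700 CPM (log2 fold change -1.23, adjusted p = 0.00147). GRHL1 was slightly higher (log2 fold change 0.26, adjusted p = 0.0221, 0.125 with DESeq2). The summed level of this list was 101 to 108 CPM in PEG and HS and 98.9 to 102 CPM in E8 control. The defining epidermal markers TP63, KRT5 and KRT15 had at most 5 counts in any library, and KRT14 had none.

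Of the 8 amnion and trophectoderm genes 6 were tested, with 3 called lower and 0 higher (median -1.05). HAND1, among the 3, rested on 16 counts in all. IGFBP3 fell from 45.3 ± 5.78 to 17.2 ± 2.49 CPM (log2 fold change -1.40, adjusted p = 2.89e-08) and KRT7 from 7.10 ± 0.296 to 3.76 ± 0.557 CPM (log2 fold change -0.92, adjusted p = 1.90e-05). The summed level was 20.8 to 26.5 CPM in PEG and HS and 50.8 to 61.7 CPM in E8 control. Most of that sum was IGFBP3 and KRT7, while ISL1, VTCN1, HAND1, CDX2 and WNT6 stayed under 1 CPM in both media. GABRP went the other way, from 1.69 ± 0.214 CPM in the control libraries to 2.29 ± 0.0996 CPM with the additives. Its libraries were separate by medium, but it was not called (log2 fold change 0.43, adjusted p = 0.0816, edgeR quasi-likelihood test). Neural plate genes had 6 of 9 called lower and 0 higher (median -1.52), led by LHX5, OTX2 and SOX1. The summed level of that list was 26.2 to 30.6 CPM in PEG and HS and 116 to 121 CPM in E8 control. HES5 and FEZF2, among the 6, had 48 and 81 counts in all. Leaving out each library in turn gave 4 to 6 calls in this list, and DESeq2 gave 5. Among 11 mesoderm genes 10 were tested, with 2 called lower (median -0.03), TBX6 at a log2 fold change of -0.48 and MEOX1 from 11 counts in all. Only 1 of the 10 was called with DESeq2 or with any library left out, and without E8 control replicate 3 TBX6 was not (adjusted p = 0.0646). The part of these tissues in the TFAP2A and DLX5 results was not tested. In bulk RNA, fewer cells of a type and less RNA per cell cannot be told apart.

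BMP ligands are known to act upstream of TFAP2A and DLX5 at the border. The list of BMP ligands and BMP response genes had 6 of 10 called lower, 2 higher and 2 not called (median -0.53). A link between this list and the TFAP2A and DLX5 results was not tested. BMP4 fell from 7.97 ± 0.943 to 1.57 ± 0.0743 CPM (log2 fold change -2.34, adjusted p = 2.46e-09, edgeR quasi-likelihood test), BMP2 from 17.0 ± 0.435 to 3.59 ± 0.135 CPM (log2 fold change -2.24, adjusted p = 8.13e-12) and ID4 from 36.9 ± 2.22 to 8.48 ± 0.478 CPM (log2 fold change -2.13, adjusted p = 3.17e-12). The direction was not shared by all, since ID3 was at 89.7 ± 3.16 CPM without and 89.6 ± 2.70 CPM with the additives, with overlapping libraries (adjusted p = 0.996), and the inhibitory SMAD7 was higher in PEG and HS (40.8 ± 1.06 against 24.7 ± 0.936 CPM, adjusted p = 1.37e-08). In the pluripotent stem cell list 3 of 8 genes were called higher and 3 lower (median 0.04), with NANOG higher (log2 fold change 0.55) and SOX2 and PODXL lower (-0.59 and -0.41).

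**Figure D4:**
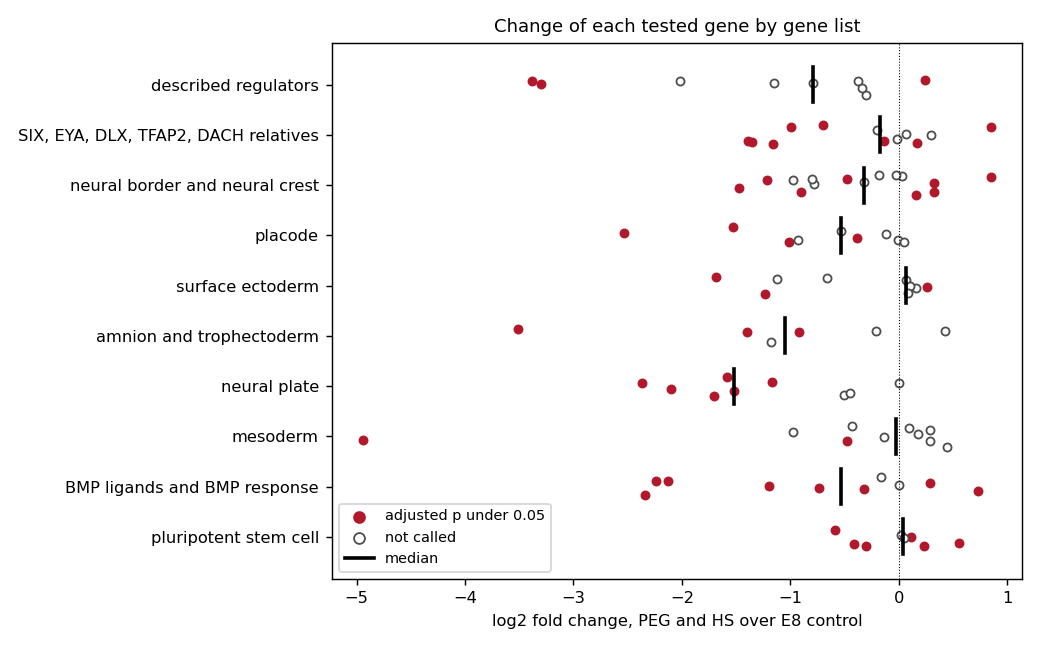
Estimated log2 fold change of PEG and HS over E8 control (horizontal axis) of each tested gene, by list, with filled points for an adjusted p under 0.05 in edgeR and a black bar for the median of the list. The 9 regulators have a median of -0.79 with TFAP2A and DLX5 at the left, and the mesoderm point farthest left is MEOX1, whose fitted value rests on 0 counts in PEG and HS and depends on the prior count.

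Genes with a profile most like that of a regulator were found by the smallest root-mean-square difference of log2(CPM + 0.5), centred over the 6 libraries, for the regulator of each family with the highest mean CPM, not corrected for length. For TFAP2A, among 13556 other genes with a mean of at least 1 CPM, the nearest were LIMCH1, FEZF1 and SOX21, at root-mean-square differences of 0.153, 0.228 and 0.239. LIMCH1 was at 8.91 ± 0.601 CPM in E8 control and 0.867 ± 0.150 CPM with PEG and HS, FEZF1, a forebrain zinc finger gene, at 19.8 ± 0.452 and 3.64 ± 0.311 CPM, and SOX21, a neural progenitor gene, at 43.9 ± 2.12 and 7.77 ± 0.636 CPM. The nearest to SIX4 were MRRF, SORD and TSEN15, at 0.0127 to 0.0161, with log2 fold changes of 0.21 to 0.23. The nearest to EYA1 were ANXA4, NKAIN3 and KLF7, at 0.0406 to 0.0457. For DLX3, whose profile rests on 77 counts, they were SPSB1, UNC80 and NCCRP1, at 0.0916 to 0.106. The added 0.5 is close to the CPM of DLX3 and to that of TFAP2A in PEG and HS, which shrinks their contrast. The neighbours of DLX3 had log2 fold changes of -0.78 to -0.57, against -1.15 for DLX3. FEZF1 and SOX21 had -2.45 and -2.51, and LIMCH1 -3.36, against -3.30 for TFAP2A. All profiles share the contrast of the 2 media, so likeness is a description.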

How the data were processed

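Messenger RNA of NCRM-1 aggregates in 6 libraries, 3 of PEG and HS and 3 of E8 control, was analysed from raw gene counts, deposited by the authors as a separate file for each library. Per the methods and labels, polyadenylated RNA was sequenced from stranded libraries, and the authors trimmed reads with Trim Galore 0.6.7 and mapped them to GRCh38 with STAR 2.6.1, in the nf-core/rnaseq pipeline. The counting tool, annotation release and use of strand are not given in the sources used here. Of 19977 identifiers, 19916 matched GENCODE 44, which gave symbols, coordinates and merged exon lengths. Genes with at least 10 counts over the 6 libraries were kept, normalized with TMM and tested with edgeR 4.0.16 in R 4.3.3 (glmQLFit, glmQLFTest, no covariate). SE was taken as the size of the log2 fold change divided by the root of F. The common biological coefficient of variation was 3.12%. The scripts were tested on simulated counts.

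The 9 genes and all lists were chosen with earlier results of these data known. The rule for naming took the 9 genes, 13 relatives, up to 3 genes of each other list with the largest change among those called, without overlap and at 1 CPM or more in each library of the higher medium, and the 3 nearest profiles of the top gene of each family. Genes named beyond this rule, such as DNMT3B, POU5F1, ID3, SMAD7, MEOX1, GABRP, FOXD3, SOX8, ETS1, PAX7, NEUROG1, POU4F1, HES5, FEZF2 and the markers given as low, were chosen after their values were seen. Alternatives were DESeq2 1.42.0, limma-voom (limma 3.58.1), 2 other normalizations, 3 other filters, a block for the replicate number, leaving out each library, and a test against a 1.5-fold change. Same-numbered libraries of the media deviated together with r of 0.0229 to 0.0459 over 13557 genes, so the numbers were not taken to pair samples. Some items of the lists are not reported here.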

Additional observations from a re-analysis of the deposited data

How the results depend on the processing

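Of the 9 regulators, 3 were called, and 2 to 4 were called under every alternative except the test against a 1.5-fold change, which called 1, TFAP2A. That test called 16 of the listed genes in place of 48 and 264 of all genes in place of 4173. Leaving out each library in turn gave 3 to 4 calls among the regulators, 37 to 46 in the lists and 3111 to 3671 over all genes. TFAP2A was called under all 15 alternatives, with log2 fold changes of -3.72 to -3.01. With the replicate number as a replicate block, the counts were 3 regulators, 46 listed genes and 4444 genes. DESeq2 gave no adjusted p for EYA4, DLX5 and DLX6, and filterByExpr did not test them. Depth limits EYA4, DLX3, DLX5, DLX6 and TFAP2B, which had 21 to 77 counts in all. With each library left out or with other scalings no regulator changed direction. Among relatives that were not called, the log2 fold change of DLX1 ranged from -0.651 to 0.468 with a library left out and turned to 0.468, 0.226 and 0.03 without PEG and HS replicate 2, E8 control replicate 1 and E8 control replicate 3, the log2 fold change of DLX2 (up to 0.619) to -0.0708 and -0.0177 without PEG and HS replicate 2 and E8 control replicate 1, and the log2 fold change of DACH2 (up to 0.106) to -0.0153 without PEG and HS replicate 1. The cause was not tested.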
